A study of Homo sapiens with 12 samples.

Results

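The 10 genes described here encode the machinery of V(D)J recombination and of the end joining that completes it: RAG1, RAG2, DNTT, XRCC5, XRCC6, PRKDC, DCLRE1C, XRCC4, LIG4 and NHEJ1. They were found by symbol among the Ensembl identifiers of the deposited tables, and 10 of the 58288 genes listed for each cell line were members. RNA-Seq was performed in HPB-ALL and KOPTK1, which are established human T-ALL cell lines. In each line, 3 libraries came from cells infected with pLKO.1 lentivirus carrying SHQ1 shRNA and 3 from control cells carrying shRNA against GFP, and all 12 cultures were kept in 2 μg/mL puromycin, which selects infected cells, for 48 h. SHQ1 is an assembly factor of H/ACA snoRNPs. Nothing in the labels says that the 3 libraries of a group came from separate infections.

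The deposited table of each line gives, for every gene, the authors' average log2 CPM (counts scaled to 1000000 per library) over the 6 libraries of that line, control and SHQ1-depleted libraries together. Levels below are that average per kilobase of summed exon length (RPKM). The 12 per-library columns carry numbers that match no sample label, so SHQ1-depleted and control libraries were not compared, and the response of these genes to SHQ1 depletion is not analysed here. For the same reason no value below has an SD or a test, neighbours in an order of levels cannot be separated against their spread, and the level of SHQ1 itself, 59.5 RPKM in HPB-ALL and 43.3 in KOPTK1, checks no label. What follows compares genes within a line and sets the lines side by side. Line and table cannot be told apart, because each table was normalized separately. Each average also mixes control and SHQ1-depleted libraries. A response to depletion that differed between the lines could therefore not be told apart from a difference of the lines themselves.

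During lymphocyte development, the RAG1-RAG2 recombinase cuts DNA next to the V, D and J segments of antigen receptor genes and leaves hairpin coding ends. Artemis (DCLRE1C), activated by the DNA-dependent protein kinase (PRKDC), opens the hairpins, DNTT adds nucleotides without a template, and the Ku heterodimer, XRCC4, DNA ligase IV and XLF (NHEJ1) rejoin the ends. RAG1, RAG2 and DNTT are restricted to developing lymphocytes, whereas the end-joining genes are used by most cell types to repair broken DNA.

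Since RAG2 and DNTT are lymphoid and XRCC6 and XRCC4 are general, the start site windows of these 4 genes are shown to set both kinds side by side. Each runs from 250 bases before to 50 bases after the RefSeq start on GRCh38.p14, and capitals mark the E-box CAGNTG on either strand, a motif of the kind bound by E proteins. The windows are at chr11:36598187-36598486 (minus strand) for RAG2, chr10:96304184-96304483 (plus) for DNTT, chr22:41621045-41621344 (plus) for XRCC6 and chr5:83077297-83077596 (plus) for XRCC4.
RAG2: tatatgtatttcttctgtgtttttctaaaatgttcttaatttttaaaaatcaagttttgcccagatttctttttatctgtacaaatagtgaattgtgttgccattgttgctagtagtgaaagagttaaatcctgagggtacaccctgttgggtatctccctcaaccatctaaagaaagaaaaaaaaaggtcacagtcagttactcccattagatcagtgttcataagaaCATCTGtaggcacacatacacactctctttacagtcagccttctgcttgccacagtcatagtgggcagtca
DNTT: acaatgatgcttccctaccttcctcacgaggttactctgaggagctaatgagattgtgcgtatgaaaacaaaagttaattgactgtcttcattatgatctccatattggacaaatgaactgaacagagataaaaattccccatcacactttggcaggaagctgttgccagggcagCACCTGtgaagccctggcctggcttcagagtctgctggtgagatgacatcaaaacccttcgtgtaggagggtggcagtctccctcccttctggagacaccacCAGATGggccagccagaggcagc
XRCC6: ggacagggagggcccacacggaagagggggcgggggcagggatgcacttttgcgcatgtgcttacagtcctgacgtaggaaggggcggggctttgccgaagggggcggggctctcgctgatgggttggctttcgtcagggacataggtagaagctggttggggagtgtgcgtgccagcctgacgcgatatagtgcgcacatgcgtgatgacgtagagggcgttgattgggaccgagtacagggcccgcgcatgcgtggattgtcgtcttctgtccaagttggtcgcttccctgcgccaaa
XRCC4: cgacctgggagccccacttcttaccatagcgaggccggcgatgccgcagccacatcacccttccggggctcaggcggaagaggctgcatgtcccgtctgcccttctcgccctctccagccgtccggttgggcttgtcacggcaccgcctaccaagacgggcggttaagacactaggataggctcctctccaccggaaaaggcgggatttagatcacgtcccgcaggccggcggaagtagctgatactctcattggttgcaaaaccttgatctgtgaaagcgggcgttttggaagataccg

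The RAG2 and DNTT windows were poor in CpG. RAG2 held 0 CpG dinucleotides at a GC content of 36.7%, and DNTT held 3 at 49.3%. XRCC6 and XRCC4 held 23 and 24 CpG, at 62.0% and 60.7% GC. Observed over expected CpG was 0.164 for DNTT, a value that 17.4% of the 35116 RefSeq windows did not exceed, against 0.871 for XRCC6 and for XRCC4. The motif CAGNTG occurred 1 time in RAG2, as CATCTG beginning at -21 from the start site, and 2 times in DNTT, as CACCTG at -75 and CAGATG at 28. It was absent from the letters of the XRCC6 and XRCC4 windows, and 49.9% of all windows hold it. The GC box GGGCGG, searched on both strands, occurred 0 times in RAG2 and DNTT, 3 times in XRCC6 and 1 time in XRCC4, with 44.95% of all windows holding it. TATAAA was in none of the 4 windows (11.5% of all windows hold it). Of the 10 genes, 8 had a RefSeq window, the exceptions being XRCC5 and PRKDC. The RAG1 window began from a start 57.7 kb upstream of the RAG1 exons counted in the tables and is therefore not shown. Unlike those of RAG2 and DNTT, it held 32 CpG at a GC content of 72.3%. The windows nearest the table starts of DCLRE1C, NHEJ1 and LIG4 had observed over expected CpG of 0.674, 0.654 and 0.925, with 0 CAGNTG in each. Alternative windows farther from those starts did hold the motif for 2 genes, 2 times in a second DCLRE1C window and 2 to 3 times in each of 4 further LIG4 windows. Some of these LIG4 windows overlap, so the same motif can be counted more than once. A second NHEJ1 window held it 0 times, and the RAG1 window 1 time. Over all windows, E-boxes therefore did not separate the lymphoid from the general genes.

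In the deposited tables, whose coordinates overlap the RefSeq GRCh38 position of all 10 genes, RAG1 (chr11:36568025-36579756, plus strand) and RAG2 (chr11:36591943-36598279, minus strand) face each other across 12186 bases. RAG1 had 2 merged exons and RAG2 had 3. Exons made up 55.9% of the RAG1 span and 44.5% of the RAG2 span, and LIG4 (chr13:108207439-108218368), with 4 exons, was similarly compact at 40.1%. The other genes were mostly intron. PRKDC (chr8:47773108-47960183) had 86 merged exons in 187076 bases, and XRCC4 (chr5:83077498-83353787) had 8 exons that made up 0.627% of its span. DNTT (chr10:96304396-96338564) had 11 exons, XRCC6 (chr22:41621119-41664048) 13, DCLRE1C (chr10:14897359-14954432) 18, XRCC5 (chr2:216107464-216206303) 23 and NHEJ1 (chr2:219075317-219160853) 8. Of the counted length of NHEJ1, 62.3% also belongs to another annotated gene on the same strand, so its level is uncertain. RAG2 shares 3.87% of its length with IFTAP, and DCLRE1C shares 2.59% with SUV39H2, each on the opposite strand.

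Before the lines are compared, the labelled cell type and the range of differences were checked. T lineage markers were present in both averages: the 10 markers with a row in the tables, CD3D, CD3E, CD3G, CD247, CD2, CD5, CD7, LCK, TRAC and TRBC2, ranged from 13.7 to 295 RPKM in HPB-ALL and from 28.3 to 1082 in KOPTK1. Of 8 cortical thymocyte markers, CD1A, CD1B, CD1C and CD1E were at no less than 16.1 RPKM in either line. The others were low: CD4 averaged 0.939 RPKM in HPB-ALL and 0.631 in KOPTK1, CD8A 0.968 and 5.47, CD8B 1.47 and 1.38, and PTCRA 2.53 and 4.32. Summed over 6 myeloid markers the level was 1.27 RPKM in HPB-ALL and 1.63 in KOPTK1, and over 4 erythroid markers 2.61 and 2.54. Among the B lineage markers, CD79A averaged 43.3 RPKM in HPB-ALL and 16.1 in KOPTK1 and EBF1 averaged 1.10 and 0.416, whereas PAX5, the defining B lineage factor, was at 0.0198 and 0.0191. Differences between the lines were not symmetric. Among 6758 protein-coding genes of at least 10 RPKM in HPB-ALL, 0 were at or under 25% of that level in KOPTK1, the lowest being CLEC11A at 28.8%. Among 6688 such genes in KOPTK1, 53 were at or under 25% in HPB-ALL, the lowest being PBDC1 at 1.48%. Whether the KOPTK1 libraries hold some RNA of HPB-ALL, which would bring KOPTK1 levels nearer to those of HPB-ALL, was not tested, and every KOPTK1 level and ratio below is given with that limit.

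The recombinase genes were the lowest of the 10 in HPB-ALL per summed exon length. RAG1, the subunit that holds the catalytic site, averaged 2.13 RPKM in HPB-ALL and 9.55 in KOPTK1, 4.48-fold higher in KOPTK1. In bulk RNA, fewer cells that express a gene and less of its RNA per cell cannot be told apart. RAG2, the regulatory subunit that also reads histone H3 methylation, averaged 2.81 RPKM in HPB-ALL and 4.0 in KOPTK1, 1.42-fold higher in KOPTK1. RAG1 was therefore the less abundant of the pair in HPB-ALL, at 0.757 of RAG2, and the more abundant in KOPTK1, at 2.39 times RAG2. With the length of the MANE Select transcript in place of the summed exon length, these values were 0.639 and 2.01. Ranked by RPKM, RAG1 was 18700 of the 23274 genes that reached 1 RPKM in HPB-ALL and 8927 of 24635 in KOPTK1. RAG2 moved less, from rank 16835 to rank 15099.

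DNTT, which encodes terminal deoxynucleotidyl transferase, differed most. It averaged 11.9 RPKM in HPB-ALL and 57.4 RPKM in KOPTK1, 4.81-fold higher in KOPTK1. Its rank went from 7387 in HPB-ALL to 911 in KOPTK1, which is among the upper 3.70% of the genes that reached 1 RPKM there. In each line DNTT exceeded RAG1 by a similar factor, 5.59 in HPB-ALL and 6.01 in KOPTK1. On the log2 scale, the difference of HPB-ALL minus KOPTK1 was -2.27 for DNTT, -2.16 for RAG1 and -0.51 for RAG2.

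XRCC5, XRCC6 and PRKDC were the 3 most abundant of the 10 genes in each line. XRCC5 and XRCC6 encode the subunits of the Ku heterodimer, which threads onto DNA ends. XRCC5 averaged 179 RPKM in HPB-ALL and 133 in KOPTK1, and XRCC6 averaged 160.3 and 115 RPKM. Both were higher in HPB-ALL, by 1.35-fold and 1.40-fold, and kept nearly the same proportion to each other, 1.12 in HPB-ALL and 1.16 in KOPTK1. That proportion turned with MANE Select lengths, to 0.896 and 0.929, so which subunit is the more abundant was not settled. XRCC6 has 5 processed copies in the tables, XRCC6P1 to XRCC6P5, whose levels reached no more than 0.419 RPKM in either line.

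PRKDC, the catalytic subunit of the DNA-dependent protein kinase, averaged 115 RPKM in HPB-ALL and 121 in KOPTK1, a 1.06-fold difference. It had the most exonic bases of the 10 genes, 13509, and held 1548 and 1640.1 CPM. DCLRE1C, the nuclease that this kinase activates, was far lower, at 7.42 RPKM in HPB-ALL and 8.87 in KOPTK1. PRKDC exceeded DCLRE1C 15.4 times in HPB-ALL and 13.7 times in KOPTK1.

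The ligation genes were at intermediate to low levels. LIG4, which encodes DNA ligase IV, averaged 15.1 RPKM in HPB-ALL and 10.5 in KOPTK1, 1.44-fold higher in HPB-ALL. XRCC4, which stabilizes the ligase, averaged 8.58 and 8.85 RPKM, a 1.03-fold difference. LIG4 thus exceeded XRCC4 1.76 times in HPB-ALL and 1.18 times in KOPTK1. NHEJ1, which encodes the XRCC4-like factor that bridges the ends, averaged 4.79 RPKM in HPB-ALL and 4.64 in KOPTK1. With the MANE Select length, which is 8020 bases against the 2098 counted, NHEJ1 was at 1.25 and 1.21 RPKM and was the lowest of the 10 genes in both lines. The XRCC6 to LIG4 ratio was 10.6 in HPB-ALL and 10.96 in KOPTK1.

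All 10 genes reached 1 RPKM in both lines. Of them, 2 (RAG1 and DNTT) differed at least 2-fold between the lines, where 6.94% of the 22430 genes that reached 1 RPKM in both did so. Both were lower in HPB-ALL, as were 4.03% of all genes at that fold. They were also past 4-fold, where 0.727% of all genes were lower in HPB-ALL and 0.0134% were higher. A log2 difference as low as that of RAG1 was found in 0.575% of genes, and one as low as that of DNTT in 0.535%. RAG2 was within the bulk, since 14.9% of genes had a difference as low. The 7 end-joining genes ranged from -0.26 for DCLRE1C to 0.53 for LIG4 (log2), and 4 of them were higher in HPB-ALL. Their median was 0.05, against -0.02 over all 22430 genes. That median is the value of NHEJ1, which is among the 4 and whose level is uncertain. NHEJ1 turned to -0.01 after centring on genes of at least 10 RPKM. A difference as large as that of LIG4 in either direction was found in 24.1% of genes. The genes were not chosen by these values, but they were proposed with earlier results of these data known.

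**Figure D1:**
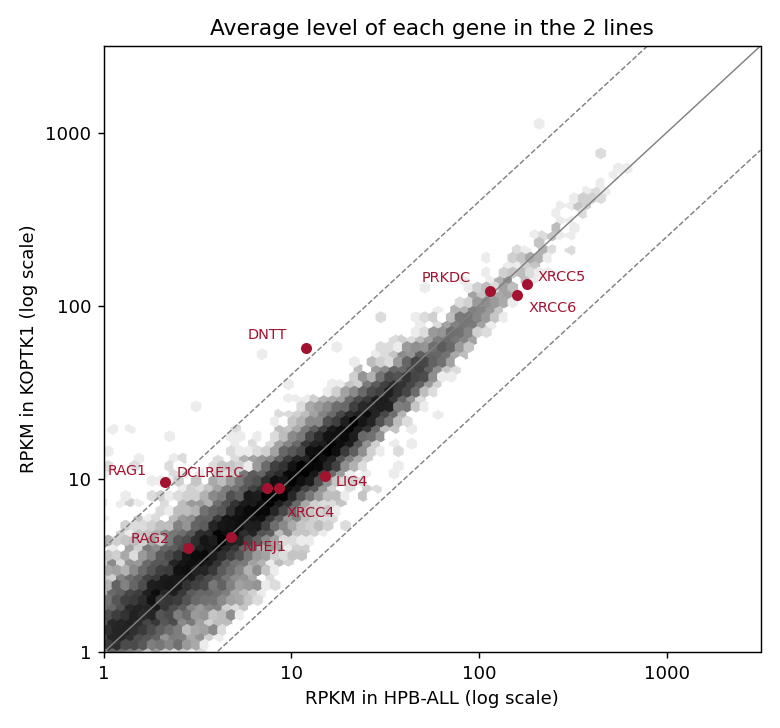
Average RPKM of each gene in HPB-ALL (x axis) and KOPTK1 (y axis), both on log scales, for the 22430 genes that reached 1 RPKM in both lines (grey density) and the 10 members (red). The solid line marks equal levels and the dashed lines 4-fold differences, beyond which RAG1 and DNTT lie on the KOPTK1 side.

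Genes that act with the recombinase were next examined. HMGB1 and HMGB2, DNA-bending proteins that assist RAG cleavage, averaged 103 and 166 RPKM in HPB-ALL and 97.2 and 192 in KOPTK1. DCAF1, a RAG1-binding ubiquitin ligase subunit, was at 15.6 and 21.4 RPKM. Of the 8 cofactor and turnover genes examined, 0 differed at least 2-fold between the lines, near the share of all genes (6.94%), and their log2 differences ranged from -0.45 to 0.25 with a median of 0.08. Of the flanking genes examined on chromosome 11, TRAF6 alone reached 1 RPKM in both lines. It did not show the difference of RAG1, at 8.84 RPKM in HPB-ALL and 9.41 in KOPTK1. IFTAP averaged 0.897 and 1.10, and PRR5L 0.145 and 0.18, which is too low for a comparison under that limit.

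Transcription factors known or proposed to act on the RAG genes were expressed in both lines. Of 13 such genes, 0 differed at least 2-fold, which is near the 6.94% of all genes, with a median log2 difference of -0.13 and a range from -0.89 to 0.88. The extremes were TCF7, a T-lineage factor, at 144 RPKM in HPB-ALL and 267 in KOPTK1, and FOXO1, an activator of RAG transcription, at 1.90 and 1.03. MYB averaged 114 and 182 RPKM, 1.60-fold higher in KOPTK1. The E protein genes TCF3 and TCF12 were level, at 71.1 and 64.8 RPKM in HPB-ALL and 77.6 and 64.7 in KOPTK1. LEF1 averaged 193 RPKM in HPB-ALL and 195 in KOPTK1.

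Accessory end-joining factors covered a wide range. Of 11 genes, 1 differed at least 2-fold, near the share of all genes (6.94%). That gene was POLL, a gap-filling polymerase of the same family as DNTT, which averaged 3.92 RPKM in HPB-ALL and 1.36 in KOPTK1, 2.89-fold higher in HPB-ALL and opposite to DNTT. POLM, the family member closest to DNTT, averaged 30.8 and 22.3 RPKM, 1.38-fold higher in HPB-ALL. PARP3 was 1.86-fold higher in HPB-ALL, at 9.59 against 5.17 RPKM. PAXX, a Ku-binding paralog of XRCC4, was at 46.8 and 41.2 RPKM, which is above XRCC4 itself in each line. The median log2 difference over the 11 genes was 0.18.

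Of 14 genes that sense breaks and protect their ends, 0 were past 2-fold, near the 6.94% of all genes, and the median log2 difference was -0.07. ATM, the kinase that responds to RAG-made breaks, averaged 16.7 RPKM in HPB-ALL and 17.6 in KOPTK1, and TP53BP1, which shields ends from resection, averaged 16.2 in each line. H2AX, whose phosphorylation marks breaks, was the highest at 191 and 183 RPKM. The largest differences were in SHLD1, 1.70-fold higher in KOPTK1, and MDC1, 1.64-fold higher in HPB-ALL.

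**Figure D2:**
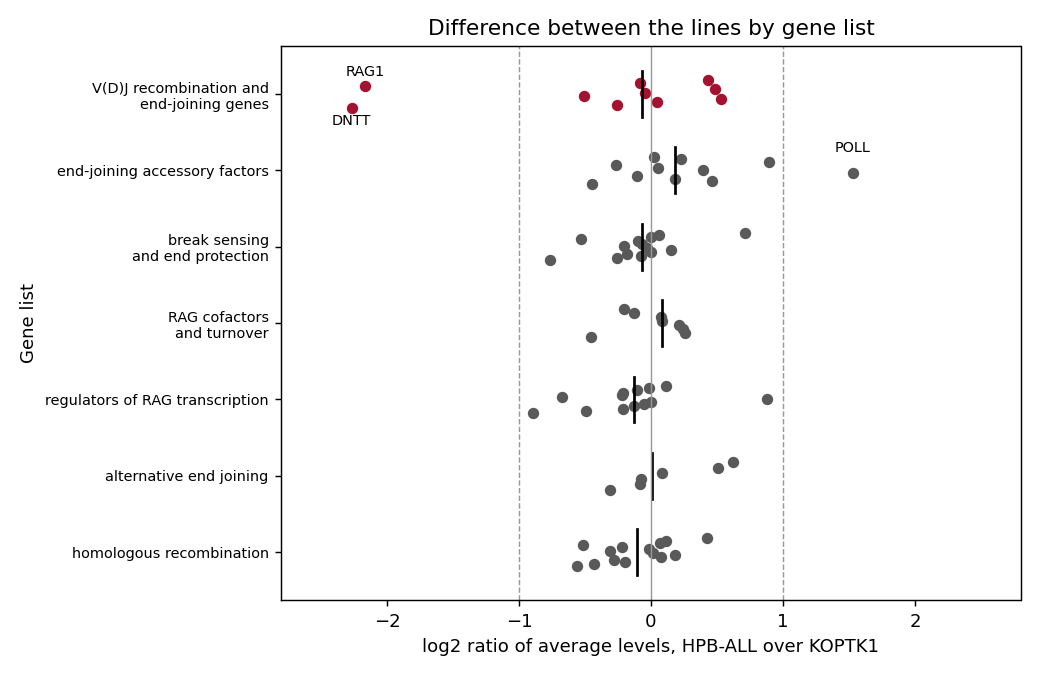
Log2 of the HPB-ALL average divided by the KOPTK1 average (x axis) for the 10 members (red) and the genes of 6 related lists (grey) that reached 1 RPKM in both lines, with black bars at the medians and dashed lines at 2-fold. RAG1 and DNTT lie beyond -2, POLL lies at 1.53, and all other points are within 2-fold.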

How the data were processed

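Total RNA was rRNA depleted and sequenced. For the deposited tables, the submitters' processing notes list Trimmomatic 0.36, STAR 2.5.4b, Picard 2.18.7, featureCounts 1.6.2 and edgeR 3.22.3 with build hg38, whereas the methods of the study name Bowtie 2 and hg19 for its splicing analysis. Strand handling is not given in the sources used here. The deposited average log2 CPM of each gene was computed by the authors over the 6 libraries of a line, with a prior count that sets a floor of 0.0488 CPM in HPB-ALL and 0.0669 in KOPTK1. If that prior was the default of 2, the floors imply a mean of 41000000 and 29900000 counts per library, of which RAG2 takes about 325 and 337.

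RPKM was taken from the average CPM and the summed exon length. Genes were compared between lines at 1 RPKM or more in both, with 2-fold as the limit for a difference. Python 3.11.15, pandas 2.3.3 and numpy 2.4.6 were used, and the steps were tested on simulated data. Symbols matched 95.9% of identifiers. Start site windows are from RefSeq, and MANE Select lengths from GENCODE release 44 lifted to GRCh37, used for lengths alone.

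The 12 per-library columns match no sample label and were not used, so the tests set for the knockdown were not run. The deposited fold changes, F statistics, p-values and FDR values hold the authors' own comparison and were not used either. The 10 genes and the lists were chosen with earlier results of these data known. Every member is named, and other genes of the lists where they were past 2-fold or the list had 15 or fewer genes. Some genes of the lists are not reported here. Alternatives were CPM in place of RPKM, a minimum of 10 RPKM, centring, a 1.5-fold limit, subtraction of the floor, MANE Select lengths and other sets of genes as background.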

Additional observations from a re-analysis of the deposited data

How the results depend on the processing

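No paired analysis was possible because no column of a single library carries a sample label, and the fits planned with a replicate block, without single replicates, with another pseudocount or normalization and without a filter were not run for the same reason. The count of 2 genes past 2-fold, RAG1 and DNTT, was also 2 after centring and at 1.5-fold, where 20.4% of all genes passed, so that at 1.5-fold the count is at the share of all genes. With a minimum of 10 RPKM in both lines, RAG1 (2.13 RPKM in HPB-ALL and 9.55 in KOPTK1) was no longer compared. DNTT alone of the members was then past 2-fold, as were 1.71% of the 7707 genes at that minimum. Without division by length, the median level of the 10 genes was 34.5 CPM in HPB-ALL and 58.5 CPM in KOPTK1, where per kilobase it was 10.2 and 10.01 RPKM. With MANE Select lengths, an alternative chosen after the data were seen, the medians were 10.7 and 10.6 RPKM. The median log2 ratio of the 10 genes, -0.06 without centring, was -0.045 after centring on the genes of at least 1 RPKM and -0.12 on those of at least 10. Of the 10 genes, NHEJ1 alone changed sign, to -0.01 under the latter. The share of all genes past 2-fold, 6.94%, was 5.82% over protein-coding genes and 11.9% over genes that reached 1 RPKM in either line, both chosen after the data were seen. At the depth implied by the floors, the averages of the 10 genes rest on between 291 (NHEJ1, KOPTK1) and 63458 counts per library (PRKDC, HPB-ALL), whereas the spread between libraries was not analysed.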

Other observations

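Pathways that compete with end joining were expressed in both lines. Of 6 genes of alternative end joining, 0 differed at least 2-fold, where 6.94% of all genes did, with a median log2 difference of 0.00 (HPB-ALL minus KOPTK1). PARP1, which senses DNA breaks, averaged 84.7 RPKM in HPB-ALL and 55.0 in KOPTK1, 1.54-fold higher in HPB-ALL, and POLQ, the polymerase of this pathway, averaged 25.6 and 27.1. Of 14 homologous recombination genes, 0 were past 2-fold, with a median of -0.11, and both counts are near the share of all genes. BRCA1 averaged 35.6 RPKM in HPB-ALL and 32.9 in KOPTK1, and BRCA2 averaged 27.9 and 20.7.

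Among the lineage markers, TRBC2, a constant segment of the T-cell receptor beta locus on which RAG acts, averaged 204 RPKM in HPB-ALL and 1082 in KOPTK1. TRBC1, also on the marker list, could not be matched, so TRBC2 alone stands for this locus here. CD2 averaged 13.7 and 47.8 RPKM, and CD1B 30.0 and 82.9. Among markers that reached 1 RPKM in both lines, 2 of 10 T lineage and 1 of 6 cortical thymocyte genes were past 2-fold. Of all genes, 6.94% were. CD8A and CD4 missed that minimum and are not counted. CD8A was 5.65-fold higher in KOPTK1 (0.968 RPKM in HPB-ALL and 5.47 in KOPTK1), and CD4 was 1.49-fold higher in HPB-ALL (0.939 and 0.631). The median log2 difference (HPB-ALL minus KOPTK1) was -0.03 over the 10 and 0.13 over the 6. Other markers of both lists that reached 1 RPKM in both lines were higher in HPB-ALL, by less. The largest such differences were 1.20-fold for LCK (224 and 186 RPKM) and 1.31-fold for CD1A (27.3 and 20.8). CD247 and PTCRA were higher in KOPTK1, by 1.53-fold and 1.71-fold. These values have no error, and their relation to the levels of RAG1 and DNTT was not tested. Of 4 packaging cell or fibroblast markers, 3 were under 1 RPKM in each line.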
